A study of Mus musculus with 16 samples.

Results

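The TOX family is a small group of nuclear proteins that bind DNA through an HMG box, and 3 of its genes, Tox, Tox2 and Tox4, are described here across dark zone and light zone germinal centre B cells of mice with a mutant Ezh2. The members are the rows with these 3 symbols among the 49584 genes of the deposited count table. Tox was chosen because its level is much lower in the mutants, so its genotype difference is a description and is not tested. Tox2 and Tox4 were set beside it as relatives, whatever their levels. A further relative, Tox3, had 2 reads in all 16 libraries together.

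RNA was sequenced from B cells of the spleen of C57BL/6J mice, 3 months old, sampled at day 8 of the response to injected sheep red blood cells. Control mice were Cγ1-cre+/- and mutant mice Ezh2(Y641F)fl/wt;Cγ1-cre+/-, so both genotypes carried the Cre, which germinal centre B cells switch on when they are activated, and the mutants kept 1 wild-type Ezh2 allele. Y641F is the lymphoma change in EZH2, the methyltransferase of Polycomb repressive complex 2 that marks histone H3 at lysine 27. Germinal centre B cells were sorted as B220+, FAS+ and CD38-. Centroblasts, the dividing cells of the dark zone, were the CXCR4+ CD86- fraction and centrocytes, the light zone cells that are selected on antigen and T cell help, the CXCR4- CD86+ fraction. Control centroblasts, mutant centroblasts, control centrocytes and mutant centrocytes had 4 libraries each, with 35230563 to 44466911 counted reads per library, and the labels put every mouse in litter 1. Y-linked transcripts were present in libraries 1 and 2 of every group and nearly absent in libraries 3 and 4, which are called male and female below.

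TOX is best known from T cells, where it is needed for the CD4 lineage in the thymus and sustains the exhausted state under lasting antigen receptor and calcineurin–NFAT signalling. TOX2 is known from T follicular helper cells, the T cells that help germinal centre B cells, and TOX4 is a broadly made subunit of the PTW/PP1 phosphatase complex on chromatin. The members share the HMG box and differ in the sequence around it.

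A stretch found by likeness is shown, because a shared box makes these genes a family and likeness between members could blur counts made per gene. The ends of the HMG box were not looked up, so the stretch need not match it. Below is the most alike stretch of 210 bases of the 3 coding sequences, found by comparing GENCODE M21 transcripts (Tox, Tox2 and Tox4 on GRCm38, which is mm10). Capitals mark bases that are the same in all 3 members. The stretch begins at base 748 of the coding sequence of Tox, 829 of Tox2 and 634 of Tox4.
Tox: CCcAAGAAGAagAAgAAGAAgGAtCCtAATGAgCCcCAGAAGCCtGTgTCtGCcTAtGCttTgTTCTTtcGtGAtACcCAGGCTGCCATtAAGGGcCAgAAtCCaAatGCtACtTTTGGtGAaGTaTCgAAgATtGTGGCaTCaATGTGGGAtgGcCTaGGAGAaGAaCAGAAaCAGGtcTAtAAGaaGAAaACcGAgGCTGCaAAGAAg
Tox2: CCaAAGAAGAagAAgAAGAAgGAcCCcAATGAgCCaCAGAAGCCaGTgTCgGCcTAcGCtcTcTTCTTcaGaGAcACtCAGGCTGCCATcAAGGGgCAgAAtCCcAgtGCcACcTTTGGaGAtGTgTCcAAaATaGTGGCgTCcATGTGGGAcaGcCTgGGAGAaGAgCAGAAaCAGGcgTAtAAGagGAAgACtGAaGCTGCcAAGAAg
Tox4: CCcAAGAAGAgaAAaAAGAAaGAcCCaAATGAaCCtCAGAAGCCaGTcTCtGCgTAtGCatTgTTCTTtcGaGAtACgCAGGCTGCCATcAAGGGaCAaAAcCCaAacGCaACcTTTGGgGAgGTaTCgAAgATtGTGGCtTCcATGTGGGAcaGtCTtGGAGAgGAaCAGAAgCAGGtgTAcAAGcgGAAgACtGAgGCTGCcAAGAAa
In this stretch 154 of the 210 bases (73.3%) were common to all members, 171 (81.4%) to Tox and Tox2, likewise 171 (81.4%) to Tox and Tox4, and 167 (79.5%) to Tox2 and Tox4. Over the whole transcripts the longest run without a difference was 20 bases between Tox and Tox2 and 17 bases between Tox4 and either of them. Reads longer than such a run differ between the members.

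In mm10 the Tox gene spans bases 6686353 to 6991557 of chromosome 4 (minus strand), Tox2 spans bases 163203125 to 163324170 of chromosome 2 (plus strand), and Tox4 spans bases 52279146 to 52296401 of chromosome 14 (plus strand). The annotated exons of Tox4 overlap those of Mettl3, an RNA methyltransferase gene on the other strand, over 933 bases (13.4% of the exon bases of Tox4), and those of Rab2b over 195 bases (2.81%). Mettl3 was read at 56.1 to 70 CPM (reads scaled to a common TMM-adjusted library size, the usual CPM unit) and Rab2b at 18.8 to 32.3 CPM. Whether the counting used the strand is not given in the sources used here, so a part of the Tox4 count can be theirs. The antisense gene that overlaps Tox, Gm11802, did not exceed 0.0277 CPM in any library.

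Tox was read in every library and was several times lower in the mutants. Control centroblasts held 34.0, 30.7, 45.1 and 32.9 CPM of Tox in libraries 1 to 4. Mutant centroblasts held 6.40, 9.59, 9.20 and 10.8 CPM. Every mutant library was below every control library, as for 8.01% of tested genes. The means were 35.7 ± 6.44 and 9 ± 1.87 CPM (SD, n = 4). On the log2 scale mutants differed from controls by −1.99 ± 0.18 (SE), or were 3.96-fold lower. In the same comparison 10.5% of the 15240 tested genes passed the test in either direction (edgeR quasi-likelihood test, Benjamini-Hochberg adjusted p below 0.05), 4.06% higher and 6.4% lower in mutants. Of the tested genes 99 had a lower log2 fold change than Tox.

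Control centrocytes held 68.4, 58.8, 68.9 and 52.6 CPM of Tox, and mutant centrocytes 10.6, 14.9, 11.4 and 15.6 CPM. Here too every mutant library was below every control library, as for 12.4% of tested genes. The means were 62.2 ± 7.89 and 13.1 ± 2.51 CPM (SD, n = 4). The log2 difference was −2.24 ± 0.18 (SE), that is 4.74-fold lower, and 96 tested genes had a lower value. In this comparison 16.5% of tested genes passed, 7.37% higher and 9.15% lower in mutants. The difference between the genotype differences of centrocytes and centroblasts was −0.26 ± 0.24 (log2, SE). In bulk RNA fewer cells with Tox and less Tox RNA per cell cannot be told apart.

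The lower level of Tox was of like size in each sex, in fits chosen after seeing the data. Among males the log2 difference was −2.03 in centroblasts and −2.33 in centrocytes, and among females −1.95 and −2.18, from 2 libraries a group. Over all alternative settings and left-out libraries it lay between −2.10 and −1.84 in centroblasts and between −2.35 and −2.07 in centrocytes. The lowest Tox level of any control library, 30.7 CPM, was above the highest of any mutant library, 15.6 CPM. Tox was chosen for this fall, so the gap is no separate result. The share of tested genes with such a gap over both zones was not counted.

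**Figure D1:**
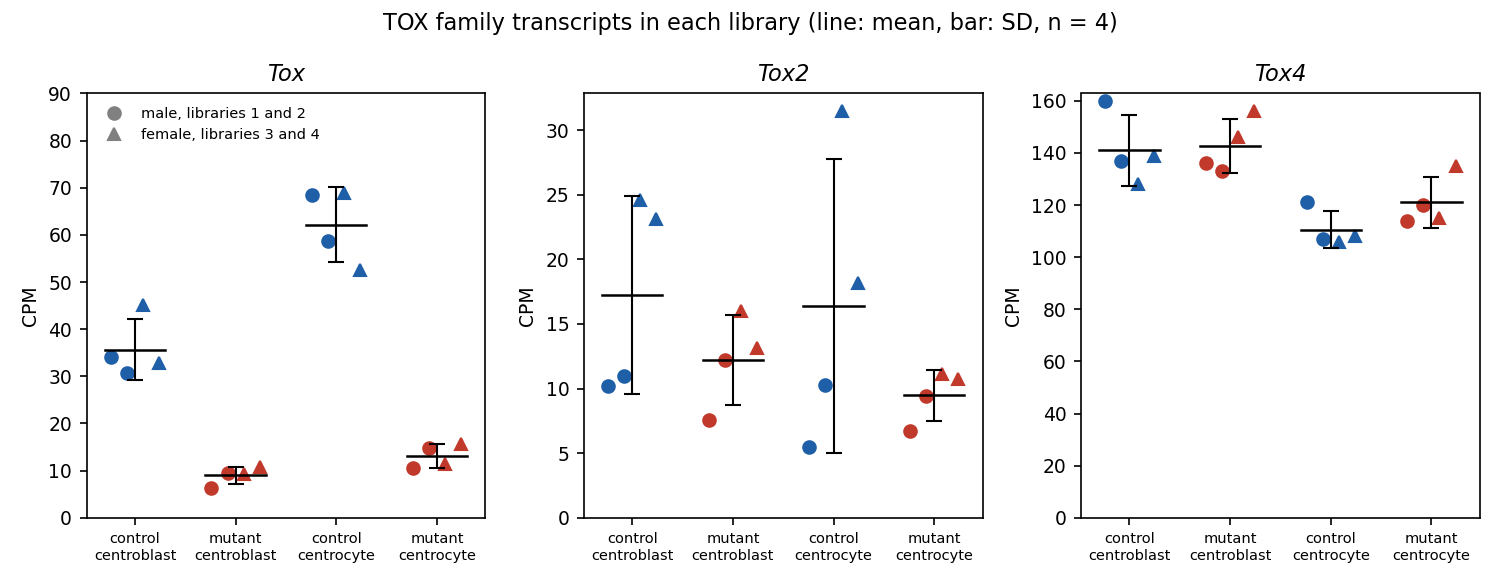
CPM of Tox, Tox2 and Tox4 (y axes, linear from 0) in each of the 16 libraries by group, controls in blue and mutants in red, circles for male and triangles for female libraries, with the mean as a line and the SD as a bar (n = 4). Tox of the mutants stays at or below 15.6 CPM, the control libraries of Tox2 split by sex, and Tox4 lies between 106 and 160 CPM in every library.

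The zone comparison asks how the light zone differs from the dark zone, and the rule that chose Tox did not use it. Tox rose from control centroblasts to control centrocytes by 0.80 ± 0.17 (log2, SE, n = 4 per group), or 1.74-fold (edgeR adjusted p = 0.00208). The libraries did not overlap, with at most 45.1 CPM in centroblasts and at least 52.6 CPM in centrocytes, as for 15.4% of tested genes in this direction. Of the tested genes 27.8% passed in this comparison and 14.9% were higher in centrocytes, so Tox is 1 of many genes with such a difference. Among males the difference was 0.97 (edgeR adjusted p = 0.00861) and among females 0.64 (edgeR adjusted p = 0.0513).

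In mutants Tox differed between the zones in the same direction, by 0.54 ± 0.17, or 1.46-fold (edgeR adjusted p = 0.0403), where 16% of tested genes passed, 8.92% higher and 7.07% lower in centrocytes. The libraries overlapped, since mutant centroblast library 4 (10.8 CPM) was above mutant centrocyte library 1 (10.6 CPM). The call was lost in several fits with fewer libraries, in some of which the difference was no smaller. It was 0.41, 0.57 and 0.56 without mutant centroblast library 1, 2 or 3 (edgeR adjusted p = 0.129, 0.0728 and 0.0778). It was 0.48 and 0.45 without mutant centrocyte library 2 or 4 (edgeR adjusted p = 0.119 and 0.126), and 0.51 (edgeR adjusted p = 0.128) without mutant centrocyte libraries 3 and 4 together, the libraries with the most macrophage transcripts.

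Tox2 had no called difference between the genotypes, and its control libraries were far apart. Control centroblasts held 10.2, 11, 24.6 and 23.1 CPM of Tox2 in libraries 1 to 4, and mutant centroblasts 7.56, 12.2, 16 and 13.1 CPM. The groups overlapped, with means of 17.2 ± 7.68 and 12.2 ± 3.51 CPM (SD, n = 4). The log2 fold change was −0.50 ± 0.41 (SE), with a 95% interval from −1.36 to 0.37 (edgeR adjusted p = 0.524).

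Control centrocytes held 5.51, 10.3, 31.5 and 18.2 CPM of Tox2, and mutant centrocytes 6.74, 9.40, 11.1 and 10.7 CPM. The mutant libraries lay within the range of the controls, whose lowest and highest libraries were of different sex. The difference was −0.79 ± 0.41 (log2, SE, n = 4 per group; 95% interval −1.66 to 0.08; edgeR adjusted p = 0.203). With no filter on low counts it was −0.80 with an edgeR adjusted p of 0.0352.

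The spread of Tox2 went with the sex of the mice. In each of the 4 groups both female libraries were above both male libraries, an order that 0.938% of tested genes showed. The female mean was 2.25 times the male mean in control centroblasts (23.8 against 10.6 CPM) and 3.15 times in control centrocytes (24.9 against 7.90 CPM). In mutants it was 1.47 times (14.5 against 9.86 CPM) and 1.35 times (10.9 against 8.07 CPM). With a term for sex beside the group means, Tox2 was higher in females by 0.96 ± 0.19 (log2, SE, 8 libraries of each sex; edgeR adjusted p = 0.0154), where 1.4% of genes passed. This term was looked at after the split was seen, and the sexes also differ by library number, so sex and anything else shared by libraries 3 and 4 cannot be told apart.

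Within each sex the genotype difference of Tox2 was as follows. Among females it was −0.70 in centroblasts (log2; edgeR adjusted p = 0.15) and −1.20 in centrocytes (edgeR adjusted p = 0.0118). Among males it was −0.11 (edgeR adjusted p = 0.837) and 0.02 (edgeR adjusted p = 0.984), and these fits have 2 libraries a group. Tox2 was higher in females than in males by 1.41 ± 0.22 in controls (edgeR adjusted p = 0.00446, where 1.91% of genes passed) and by 0.50 ± 0.21 in mutants (edgeR adjusted p = 0.402, where 1.41% passed). The difference between these values, −0.91 ± 0.30, did not pass over all genes (edgeR adjusted p = 0.126, unadjusted p = 0.00775, where 0.105% of genes passed). For Tox and Tox4 the female minus male difference over all groups was 0.15 ± 0.12 and 0.00 ± 0.07 (edgeR adjusted p = 0.616 and 0.984), although Tox4 too was higher in both female libraries of mutant centroblasts.

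**Figure D2:**
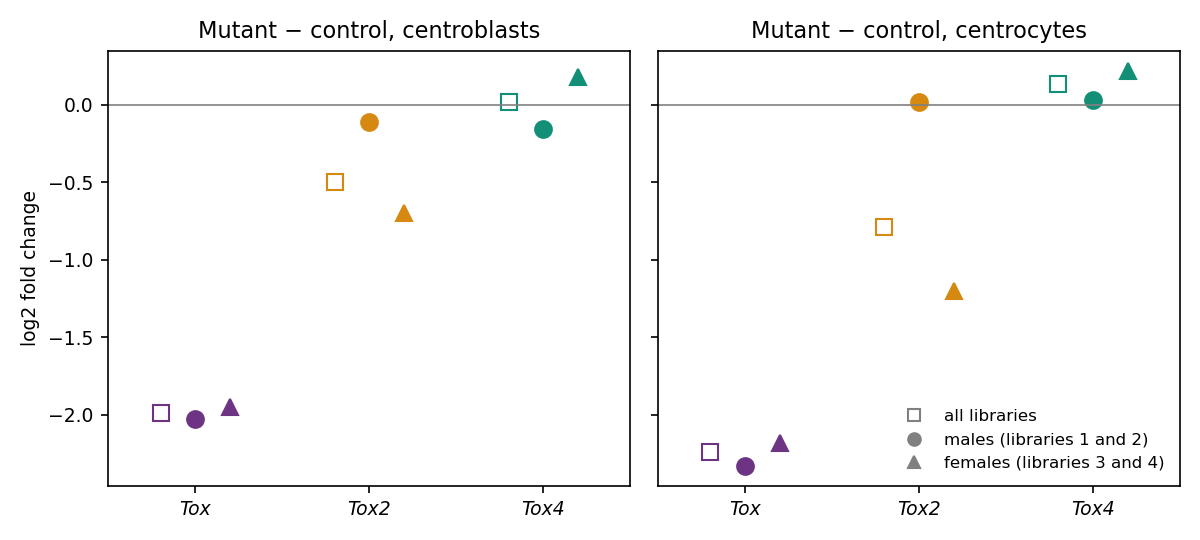
Log2 fold change of mutant against control (y axis) for Tox, Tox2 and Tox4 in centroblasts (left) and centrocytes (right), from all libraries (open squares), the male libraries alone (circles) and the female libraries alone (triangles). Tox lies near −2 in each, while Tox2 in centrocytes is at 0.02 in males and −1.20 in females.

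Between the zones Tox2 did not pass in either genotype. The difference was −0.07 ± 0.41 in controls (log2, SE, n = 4 per group; 95% interval −0.93 to 0.79; edgeR adjusted p = 0.923) and −0.36 ± 0.41 in mutants (95% interval −1.23 to 0.50; edgeR adjusted p = 0.612). The sign in controls turned without single libraries, and these intervals are too wide to compare Tox2 with Tox in this respect.

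Tox4 was the steadiest member, with a coefficient of variation of 6.29 to 9.62% within groups, against 12.7 to 20.8% for Tox and 20.8 to 69.4% for Tox2. Control centroblasts held 160, 137, 128 and 139 CPM of Tox4, and mutant centroblasts 136, 133, 146 and 156 CPM. These ranges overlapped almost fully, and the difference was 0.02 ± 0.09 (log2, SE, n = 4 per group; 95% interval −0.18 to 0.21; edgeR adjusted p = 0.943). Control centrocytes held 121, 107, 106 and 108 CPM, and mutant centrocytes 114, 120, 115 and 135 CPM. The difference was 0.13 ± 0.09 (95% interval −0.06 to 0.33; edgeR adjusted p = 0.349). With an offset for GC content and transcript length it was 0.31, and passed (edgeR adjusted p = 0.0134).

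Tox4 fell from centroblasts to centrocytes in controls, by 0.35 ± 0.09 on the log2 scale (n = 4 per group, edgeR adjusted p = 0.00926), and the libraries did not overlap, with at least 128 CPM in centroblasts and at most 121 CPM in centrocytes. In that comparison 12.9% of tested genes passed as lower, and 12.3% were lower without overlap. With no filter on low counts the edgeR adjusted p was 0.0534. Within the sexes the differences were −0.39 in males and −0.32 in females (edgeR adjusted p = 0.0987 and 0.119). In mutants the difference was −0.24 ± 0.09 (95% interval −0.43 to −0.04; edgeR adjusted p = 0.0953). Tox and Tox4 thus moved in opposite directions from the dark to the light zone of controls.

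The change of genotype difference between the zones was −0.29 ± 0.58 for Tox2 and 0.12 ± 0.13 for Tox4 (log2, SE; edgeR adjusted p = 0.999 for each). By edgeR none of the tested genes (0%) passed in this comparison, 429 had an unadjusted p below 0.05, and DESeq2 called 1.

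**Figure D3:**
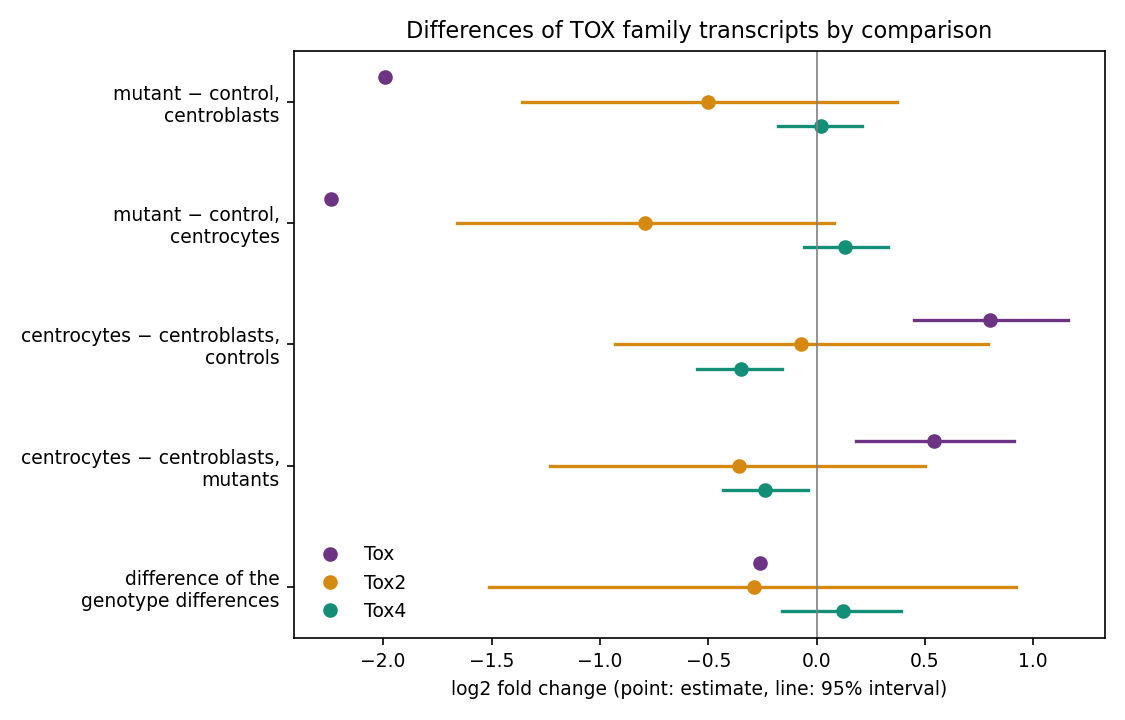
Log2 fold change (x axis) of Tox, Tox2 and Tox4 in the 5 comparisons, with points for the estimates and lines for 95% intervals. Intervals are left out for Tox where its choice used the contrast. Tox and Tox4 lie on opposite sides of 0 between the zones, and the intervals of Tox2 reach across 0 in every comparison.

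Levels can be set against each other between genes only per length. Per kilobase of exons (RPKM, over the union of annotated exons), control centroblasts held 4.69 ± 0.846 of Tox, 5.06 ± 2.26 of Tox2 and 20.3 ± 1.95 of Tox4 (SD, n = 4). Control centrocytes held 8.17 ± 1.04, 4.82 ± 3.34 and 15.9 ± 0.999. In mutant centroblasts the values were 1.18 ± 0.246, 3.59 ± 1.03 and 20.5 ± 1.49, and in mutant centrocytes 1.73 ± 0.330, 2.79 ± 0.580 and 17.4 ± 1.39. Tox4 had the highest RPKM of the family in every group, well outside the spread, while the order of Tox and Tox2 depended on genotype. Tox was above Tox2 in 2 of 4 control centroblast libraries and in 3 of 4 control centrocyte libraries, and below it in all mutant libraries.

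That order also rested on the length used, because the annotated exons of Tox sum to 7609 bases while its longest transcript has 3961. Per kilobase of the longest transcript Tox was above Tox2 in all control libraries, below it in all 4 mutant centroblast libraries, and above it in 3 of 4 mutant centrocyte libraries. Which transcripts the cells made was not measured. Tox made up 13.9 to 18.8% of the summed RPKM of the 3 genes in control centroblasts and 24.9 to 32.1% in control centrocytes (union of exons). In mutants its share was 3.72 to 5.26% and 7 to 8.9%.

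Calcineurin, its NFAT factors and their early targets form the route that switches TOX on in T cells, and of 16 such genes 14 were tested. In mutant centroblasts 2 rose and 2 fell, with a list median of −0.05 against 0.01 over all tested genes (log2), of which 4.06% rose and 6.4% fell. Rcan3 and Rcan1, calcineurin regulators, fell by 1.04 ± 0.13 and 0.78 ± 0.18 (edgeR adjusted p = 0.000105 and 0.00839), and the factor gene Nfatc2 rose by 0.50 ± 0.14 (edgeR adjusted p = 0.0276). Egr3, an early growth response factor, rose from 2.78 to 5.86 CPM. In mutant centrocytes 1 rose and 3 fell, with a median of 0.09 against 0.00, and of all tested genes 7.37% rose and 9.15% fell. Rcan1 fell there by 0.88 ± 0.18, Rcan3 by 0.85 ± 0.13 and Egr2 by 0.63 ± 0.20 (edgeR adjusted p = 0.0398), and Ppp3cc, a calcineurin catalytic subunit, rose by 0.42 ± 0.11.

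From centroblasts to centrocytes of controls 7 of the 14 rose, 2 fell and 5 did not pass (median 0.33, against 0.00 over all genes, of which 14.9% rose and 12.9% fell). In mutants 4 rose, 0 fell and 10 did not pass (median 0.25 against 0.02, with 8.92% of all tested genes higher and 7.07% lower). Egr3 rose by 3.07 ± 0.23 in controls and 2.40 ± 0.22 in mutants, and Egr2 by 2.54 ± 0.21 and 1.94 ± 0.21. Nr4a1, an orphan nuclear receptor induced by antigen receptor signals, rose from 8.82 to 35.5 CPM in controls and from 11.4 to 39.7 CPM in mutants.

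Partners of TOX4 in the PTW/PP1 complex were 5 genes, all tested. By edgeR 0 passed between genotypes in either zone (medians −0.12 and −0.07). Of all tested genes 10.5% passed in centroblasts and 16.5% in centrocytes, so 0 of 5 is near those shares. In centroblasts 0 had an unadjusted p below 0.05 and DESeq2 called 0, and in centrocytes 2 had such a p and DESeq2 called 1. Ppp1ca, a catalytic subunit, fell with Tox4 from control centroblasts to centrocytes, by 0.61 ± 0.13 (edgeR adjusted p = 0.00258), and so did Wdr82, the WD repeat subunit, by 0.34 ± 0.12 (edgeR adjusted p = 0.0431). Ppp1cc, another catalytic subunit, rose by 0.74 ± 0.23 (edgeR adjusted p = 0.0213). In mutants 0 of the 5 passed between zones by edgeR, 2 had an unadjusted p below 0.05 and DESeq2 called 1. Of all tested genes 27.8% passed between the zones of controls and 16% between those of mutants.

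Other genes with an HMG box numbered 29, of which 24 were tested. In mutant centroblasts 5 fell and none rose (median −0.13 against 0.01), and in mutant centrocytes 4 fell and 1 rose (median −0.14 against 0.00). Of all tested genes 6.4% fell and 4.06% rose in centroblasts, and 9.15% fell and 7.37% rose in centrocytes. Sox12, a SoxC factor, fell by 1.41 ± 0.31 and 1.38 ± 0.29, from 1.38 to 0.513 CPM in centroblasts and from 2.88 to 1.10 CPM in centrocytes. Bbx fell by 0.59 ± 0.17 and 0.66 ± 0.17, and Wdhd1, a replication fork protein, by 0.36 ± 0.10 and 0.37 ± 0.10. Hbp1 was the member that rose in centrocytes, by 0.53 ± 0.13 (edgeR adjusted p = 0.00801). Tox was chosen for its fall in mutants, so these changes are not ranked against its own. Between the zones of controls 3 of the 24 HMG-box genes rose and 4 fell, where 14.9% of all tested genes rose and 12.9% fell. Between the zones of mutants 3 rose and 2 fell, where 8.92% of all tested genes rose and 7.07% fell. Hmgb2, a chromatin protein of dividing cells, fell by 0.77 ± 0.17 and 0.92 ± 0.17.

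Genes that accompany TOX in exhausted T cells numbered 20, of which 14 were tested. In mutant centroblasts 1 rose and in mutant centrocytes 2 rose and 3 fell (medians 0.15 and −0.04, against 0.01 and 0.00), where 10.5% and 16.5% of all tested genes passed in either direction. The count in centroblasts is near that share. Pdcd1, the inhibitory receptor PD-1, rose from 0.853 to 1.98 CPM in centroblasts and from 1.15 to 3.28 CPM in centrocytes (edgeR adjusted p = 0.00929 and 0.00142), and so went against Tox. Ctla4, another inhibitory receptor, fell from 4.52 to 1.4 CPM in centrocytes (edgeR adjusted p = 0.000231), and Prdm1, the BLIMP1 factor of plasma cells, from 13.1 to 5.14 CPM (edgeR adjusted p = 0.0164). From centroblasts to centrocytes of controls 7 rose and 1 fell, where 14.9% of all tested genes rose and 12.9% fell. In mutants 6 rose and 2 fell, where 8.92% of all tested genes rose and 7.07% fell. The list medians were 0.89 and 0.72, against 0.00 and 0.02 over all tested genes. Bcl2 was among the listed genes that rose, by 1.95 ± 0.19 and 1.81 ± 0.19.

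T cells make Tox and Tox2, so their markers are set beside these values. Of 20 T cell markers 9 stayed under 1 CPM in every library. The receptor chain gene Cd3e did not exceed 0.364 CPM, Cd3g 0.605 CPM and Trbc2 0.439 CPM, and Il21 was at 0 in 9 of 16 libraries. Cd2, which mouse B cells also make, and Lck averaged 170 and 215 CPM. The other 18 markers summed to 9.96 to 13.1 CPM in control and 13.1 to 18.5 CPM in mutant centroblasts. In centrocytes they summed to 17.7 to 21.0 CPM in controls and 21.1 to 28.2 CPM in mutants. The ranges of the genotypes thus met or nearly met in each zone. The part of T cells in the Tox values was not tested. Of 15 tested markers 5 rose in mutant centroblasts and 3 in mutant centrocytes, Cd2, Thy1 and Zap70 in each, where 4.06% and 7.37% of all tested genes were called higher. Markers of NK and innate lymphoid cells summed to at most 4.36 CPM in any library, and 0 of 6 tested passed between genotypes by edgeR. In centroblasts 1 of these had an unadjusted p below 0.05 and DESeq2 called 1, and in centrocytes both counts were 0. Of all tested genes 10.5% passed in centroblasts and 16.5% in centrocytes, so 0 of 6 is near those shares.

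The 20 macrophage markers summed to 792 to 1160 CPM in mutant centrocytes and 467 to 572 CPM in control centrocytes, and to 754 to 832 CPM in mutant and 273 to 661 CPM in control centroblasts. Most of these sums was Apoe, a lipid carrier gene. Without Apoe mutant centrocyte libraries 1 to 4 held 96.8, 59.2, 377 and 384 CPM, so libraries 1 and 2 were no higher than the controls (86.7 to 145 CPM), and the centroblast sums overlapped (31.9 to 97 CPM in controls, 41.9 to 123 CPM in mutants). Of the 20 markers 3 rose in mutant centrocytes (Apoe, Cd68 and Lyz2) and 1, Apoe, in mutant centroblasts, where 7.37% and 4.06% of all tested genes were called higher. Each of the 20 markers was highest in mutant centrocyte library 3 (9 markers) or 4 (11 markers), and without these libraries the Tox difference in centrocytes was −2.28 (log2). Germinal centre B cell markers summed to 11600 to 15000 CPM in all libraries. Of 16 such markers 1 fell in mutant centroblasts, and 2 rose and 2 fell in mutant centrocytes. Of 10 naive follicular B cell markers 1 rose in each zone, and of 10 plasma cell markers 1 fell in mutant centroblasts while 1 rose and 1 fell in mutant centrocytes. Of all tested genes 10.5% passed in centroblasts and 16.5% in centrocytes, and no more is read from these counts.

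The genes whose levels over the 16 libraries were most like those of Tox were Ndrg1, Gpsm1, Gphn, Gramd1c and Fam234b (Pearson correlations of log2 CPM with a pseudocount of 0.5, 0.954 to 0.966). These correlations carry the differences between the 4 groups that all these genes share. Within groups, after taking off the group means, they were 0.14 to 0.55. Ndrg1, a stress-induced gene, averaged 14.4 CPM in control and 3.57 CPM in mutant centroblasts, and 19.5 and 5.11 CPM in centrocytes. Gphn, which encodes the scaffold protein gephyrin, averaged 19.7 and 8.38 CPM in centroblasts and 24.7 and 11.1 CPM in centrocytes.

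The genes least like Tox were Cpped1, Isl1, Ap3b1, Sall3 and Gm7609, with correlations of −0.965 to −0.928. Within groups the correlations were −0.01 for Cpped1, −0.1 for Ap3b1 and −0.06 for Gm7609, against −0.47 for Isl1 and −0.66 for Sall3. Sall3 and Isl1, developmental transcription factor genes, were near the limit of detection in controls. Sall3 averaged 0.758 CPM in control and 3.20 CPM in mutant centroblasts, and 0.589 and 3.51 CPM in centrocytes. Isl1 averaged 0.264 and 1.31 CPM, and 0.0922 and 0.858 CPM.

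The levels of Tox2 were shared with a different set of genes. The 5 most alike were Wipf3, Chst1, Serpina3g, Prg2 and Raver2 (correlations of 0.876 to 0.920 over 16 libraries, and 0.89 to 0.93 within groups). Each of them was higher in both female than in both male libraries in 3 or 4 of the 4 groups. They were picked for likeness to Tox2 in these same libraries, where Tox2 itself splits in this way. Neither the values within groups nor the order by sex is therefore a separate result. Chst1, a carbohydrate sulfotransferase gene, averaged 11.8 CPM in control and 4.79 CPM in mutant centroblasts, and 10.5 and 2.99 CPM in centrocytes. Serpina3g, a protease inhibitor gene, averaged 25.6 and 17.6 CPM, and 22.9 and 14.9 CPM. Between Tox and Tox2 the correlation was 0.34, also within groups.

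**Figure D4:**
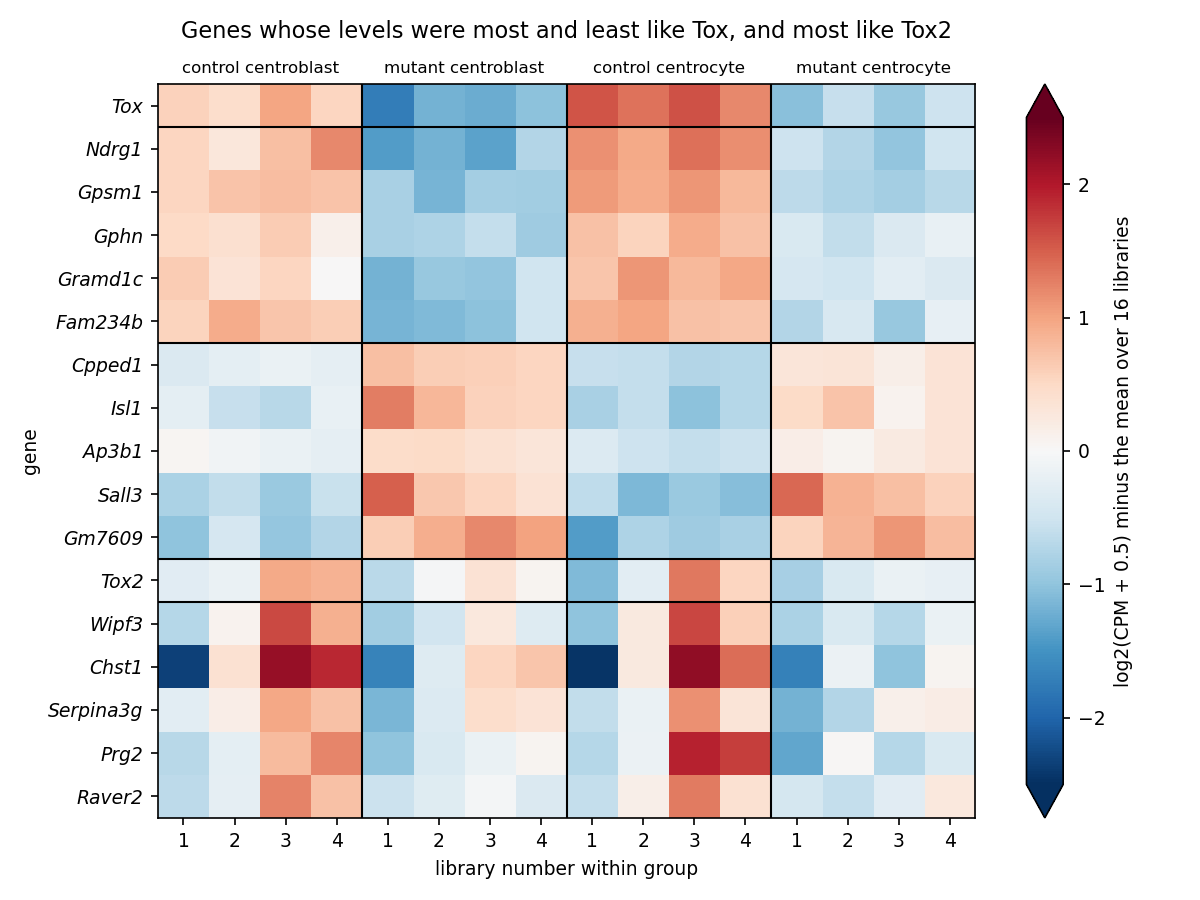
Log2(CPM + 0.5) minus its mean over 16 libraries (colour, red above and blue below) for Tox with the 5 genes most and the 5 least like it, and for Tox2 with the 5 most like it (rows), by library (columns, in 4 groups). The Tox rows change between control and mutant blocks. The Tox2 rows are higher in libraries 3 to 4 than in libraries 1 to 2 of the control blocks, and partly so in the mutant blocks.

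The genes most like Tox4 were Copa, Ppp2cb, 1810026J23Rik, Sept6 and Stk24, with correlations of 0.951 to 0.963. Within groups these were 0.85 to 0.92. Copa, a subunit of the COPI vesicle coat, averaged 519 CPM in control and 540 CPM in mutant centroblasts, and 391 and 446 CPM in centrocytes.

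Tox has few transcribed genes beside it. Of the 3 nearest genes with a count on each side 1 was tested, Nsmaf, a gene of the TNF receptor pathway on chromosome 4 from 6396207 to 6454271. Nsmaf averaged 381 CPM in control and 323 CPM in mutant centroblasts (log2 difference −0.23 ± 0.11, edgeR adjusted p = 0.2), and 313 and 282 CPM in centrocytes (−0.15 ± 0.11, edgeR adjusted p = 0.357). The other 5, among them the carbonic anhydrase gene Car8, had 1 to 4 reads in all libraries together. Beside Tox2 the tested genes were Gm11454, Oser1 and 2900093K20Rik, and beside Tox4 they were Rab2b, Mettl3 and Sall2. By edgeR 0 of these 7 neighbours passed between genotypes in either zone, 1 in each zone had an unadjusted p below 0.05, and DESeq2 called 0. Of all tested genes 10.5% passed in centroblasts and 16.5% in centrocytes, so 0 of 7 is near those shares. The lowest edgeR adjusted p among the neighbours was that of Rab2b in centrocytes (0.27 ± 0.11, edgeR adjusted p = 0.0909).

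Ezh2 itself averaged 289 ± 42.0 CPM in control and 222 ± 32.0 CPM in mutant centroblasts, and 245 ± 15.0 and 189 ± 15.2 CPM in centrocytes (SD, n = 4). On the log2 scale it fell by 0.38 and 0.37 (edgeR adjusted p = 0.0486 and 0.0395). These are reads of both alleles together.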

How the data were processed

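Gene counts came from 16 RNA-seq libraries of sorted mouse germinal centre B cells. The authors deposited whole-number counts per gene. The submitters' processing notes name Trim Galore, cutadapt, STAR 2.5.3a, featureCounts 1.4.5-p1 and mm10. The strand setting and the gene annotation are not given in the sources used here. From the counts, edgeR 4.0.16 (R 4.3.3, limma 3.58.1) fitted 1 mean per group over all 16 libraries, with TMM scaling, its filter on low counts (15240 genes kept, all 3 members among them) and the quasi-likelihood test. P-values were adjusted over all tested genes by Benjamini-Hochberg, with a threshold of 0.05, and the procedure was tested on simulated data. Totals of 35230563 to 44466911 reads gave 244 to 2936 reads of Tox, 206 to 1342 of Tox2 and 4020 to 6364 of Tox4 per library.

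The members and the gene lists (calcineurin and NFAT axis, PTW/PP1 partners, other HMG-box genes, exhaustion programme, and markers of T cells, NK and innate lymphoid cells, macrophages, germinal centre, naive and plasma cells) were chosen with earlier results of these data known. Genes named beside a member were the 5 with the highest (for Tox also the lowest) correlation with it, the 3 nearest genes on each side, and called list members. Alternatives were DESeq2 1.42.0, other scaling and filters, a GC and length offset, the compared groups alone, a replicate block, a sex covariate and left-out libraries. The labels do not say that equal library numbers mark the same mouse. Same-numbered libraries deviated together in all 4 pairs only between the zones of mutants (correlations of 0.253 to 0.486). Naive B cells of the study are not analysed here.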

Additional observations from a re-analysis of the deposited data

Results flagged for a closer look

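Tox4 in control centrocytes had 1 library apart from the others. Library 1 was at 121 CPM and the other 3 at 106 to 108 CPM, so that the gap was 0.879 of the whole range of the group. Chance flags about 1 in 20 groups, and 12 groups were looked at (3 genes in 4 groups).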

How the results depend on the processing

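The lower level of Tox in mutants kept its direction and size under every alternative run. Tox was chosen for this fall in the same counts, so these runs show how it depends on the processing and add no support. Tox between the zones of mutants passed in the full fit but not with the compared groups alone (0.54, edgeR adjusted p = 0.0617), a GC and length offset (0.51), without mutant centrocyte libraries 3 and 4 (0.51), with libraries 1 and 2 alone (0.67) or with libraries 3 and 4 alone (0.41). Leaving out 1 library at a time it was 0.41 to 0.65. Tox between the zones of controls missed with libraries 3 and 4 alone (0.64). Tox4 between the zones of controls missed without a filter on low counts (−0.35), and with libraries 1 and 2 (−0.39) or 3 and 4 alone (−0.32). With the GC and length offset Tox4 passed between genotypes in centrocytes (0.31) and between the zones of mutants (−0.27).

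Tox2 in centrocytes passed between genotypes with no filter (−0.80) and with libraries 3 and 4 alone (−1.20), and was 0.02 with libraries 1 and 2 alone. Values near 0 changed sign. Tox4 between genotypes in centroblasts was −0.16 with libraries 1 and 2 alone and −0.04 to 0.08 with 1 library left out. Tox2 between the zones of controls was 0.06 with libraries 3 and 4 alone and −0.61 to 0.22 with 1 left out, and its change of genotype difference 0.13 with libraries 1 and 2 alone and −0.59 to 0.24.

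Genes called between genotypes in centroblasts numbered 1595 (619 higher, 976 lower), against 1056 with the compared groups alone, 2730 with the GC and length offset (1561 higher, 1169 lower) and 506 with libraries 3 and 4 alone. In centrocytes they numbered 2517 (1123 higher, 1394 lower), against 4310 with the offset (2749 higher, 1561 lower), 1224 without mutant centrocyte libraries 3 and 4, 895 with libraries 1 and 2 alone, and 1601 to 2681 with 1 library left out (1601, 1646 and 1641 without control centrocyte library 2, 3 or 4). Between the zones of controls they numbered 4230 (2270 higher in centrocytes, 1960 lower), against 5879 with the offset (2236 higher, 3643 lower) and 2007 with libraries 1 and 2 alone. Between the zones of mutants they numbered 2438 (1360 higher, 1078 lower), against 3976 with the offset (1592 higher, 2384 lower), 1353 with libraries 1 and 2 alone and 1060 with libraries 3 and 4 alone. DESeq2 called 1 gene for the change of genotype difference. The cause of these shifts was not tested, beyond the fewer libraries in those fits. Fits on 2 libraries a group and the sex term were chosen after seeing the data.

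With the replicate block Tox between the zones of mutants was 0.55 (edgeR adjusted p = 0.0448) and the genotype counts were 1588 and 2396. The block changed no call of the 3 genes. It joins equal library numbers across both genotypes, so it does not pair centroblasts and centrocytes of a single mouse. A fit with such pairs was not run. Each of the 3 genes had 206 or more reads in every library.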
